A study of Mus musculus with 36 samples.

Results

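Loss of Mll2 was followed in mouse stem cells of 2 states, serum-grown embryonic stem cells (ESC) and epiblast-like stem cells (EpiSC), by sequencing poly(A)-selected RNA. Of the 36 libraries in the series, the 8 whose titles name Mll2 together with FCS or EpiSC were taken: 4 knockout libraries (2 per state) and 4 wild-type libraries (2 per state). The serum cells, labelled cycling ESC, grew with LIF and FCS (serum). The EpiSC grew with Activin A and FGF2, so state and medium changed together. Knockout titles name the genotype Mll2 KO and Tamoxifen, wild-type titles name no agent, and genotype and tamoxifen therefore cannot be told apart. The remaining 28 libraries hold Mll2 cells in 2i medium, and Setd1a KO and Bod1L KO cells (titles again with Tamoxifen) with their own wild types in all 3 conditions, 2 libraries a group. Replicates are labelled biological and no clone is named, so p-values measure the spread between these samples. The labels do not state which exons of the target gene are removed.

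Mll2 is the older name used here for the protein of the gene Kmt2b, a histone methyltransferase that places methyl groups on lysine 4 of histone H3. It works in a complex with the shared subunits Wdr5, Rbbp5, Ash2l and Dpy30 and with menin, and it carries a CXXC zinc finger that binds unmethylated CG dinucleotides, which are dense in many mouse promoters. In ESC it is known for trimethylation of H3 lysine 4 at promoters of developmental genes that also carry Polycomb marks, and for keeping a small number of genes, among them Magohb, active.

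Total gene counts were 28871525 to 34655933 per library, with 3.10% to 5.85% from mitochondrial genes. Naive ESC markers separated the states, while primed markers overlapped: 7 naive genes summed to 1294 to 2702 CPM (counts-per-million, reads scaled to library size) in serum and 27.8 to 41.9 in EpiSC, and 7 EpiSC genes to 252 to 982 and 919 to 1597. In serum, naive sums were 2510 and 1294 CPM in knockout replicates 1 and 2, and 2702 and 1535 in wild type. The primed sums there were 340 and 982 CPM in knockout replicates 1 and 2, and 252 and 748 in wild type. Replicates 1 and 2 differed in the same genes in knockout and wild-type cells. Over 12060 genes of at least 5 CPM, the replicate difference in knockout cells correlated with that in wild-type cells with r = 0.818 in serum and 0.746 in EpiSC (across genes, which are not independent). X-linked genes were higher in serum replicate 1 than in replicate 2 by a median of 0.796 (knockout) and 0.845 (wild type) on the log2 scale. The Y-linked gene Ddx3y was at 3.56 to 4.96 CPM in the 4 replicate 1 libraries and at 0.061 to 0.104 CPM in the 4 others. The X-linked gene Xist was also high in replicate 1, at 24.6 to 94.4 CPM against 0.485 to 2.72 in the others. Which cells gave the Ddx3y and Xist reads was not tested, so neither gene names a line. Knockout and wild-type libraries of the same state and number were therefore also analysed as 4 pairs. This pairing is inferred from the data, since the labels state none. Ddx3y split by replicate number in serum and EpiSC alike, so pairs of the same number may be related across the states. Chromosome 1 genes were also higher in replicate 1 in both (medians 0.417 and 0.464 in serum, 0.25 and 0.251 in EpiSC), while X-linked genes were so in serum alone. The paired fits treat the 4 pairs as independent, which was not tested.

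**Figure D1:**
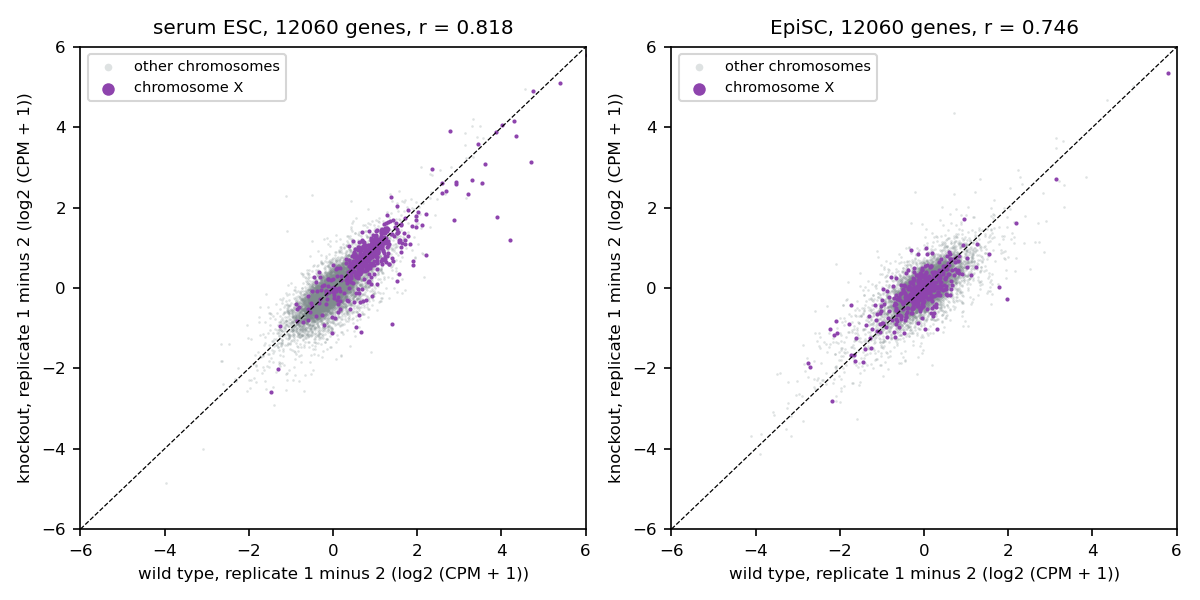
Each point is 1 of 12060 genes. The x axis gives the difference between replicates 1 and 2 in wild-type cells and the y axis that in knockout cells, both in log2 (CPM + 1), in serum ESC (left) and EpiSC (right). Points follow the diagonal (r = 0.818 and 0.746), and in serum ESC the X-linked genes lie to the upper right.

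Kmt2b itself (ENSMUSG00000006307, GRCm38 chromosome 7, 30568858 to 30588726) stayed well expressed in the knockout libraries. Its level was 119 and 139.7 CPM in serum knockout cells against 162 and 213 in wild type (replicates 1 and 2, the order used throughout), and 116 and 125 CPM in EpiSC knockout cells against 167 and 142 in wild type. Means were 129 ± 14.8 against 187 ± 35.9 CPM in serum and 121 ± 6.09 against 154 ± 17.9 in EpiSC (± SD, n = 2). All 4 knockout libraries were below their partners, and the groups did not overlap in either state. The log2 fold change (knockout over wild type, ± SE) over both states was -0.44 ± 0.13, adjusted p = 0.454 without the pairs and -0.44 ± 0.09, adjusted p = 0.0569 with them, above the threshold of 0.05 in both fits. Reads were counted over the whole gene, so this level cannot show how complete the deletion was. None of the 21 tested H3K4 methyltransferase and complex genes passed the test. Kmt2a, the closest relative of Kmt2b, was at 206 and 175 against 206 and 188 CPM in serum and 228 and 281 against 249 and 228 in EpiSC (knockout against wild type), a log2 fold change of 0.02.

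Averaged over both states, more genes fell than rose in the paired fit, and the falls were larger. With pairs as a block, 216 genes (1.08% of 19952 tested) passed an adjusted p below 0.05, 170 of them lower (0.852%) and 46 higher (0.231%). Median log2 fold changes were -1.23 for the lower genes and 0.61 for the higher ones. Of the lower genes, 109 fell by more than 1 on the log2 scale, and 12 of the higher ones rose by as much. The lower genes had a median level of 11.3 CPM and the higher ones 46.7, and the part of level in these sizes was not tested. The excess of lower genes depended on the fit. With pairs, DESeq2 called 806 lower and 618 higher, and edgeR with no filter 973 and 571. At an unadjusted p below 0.05 the paired fit held 2067 lower and 1933 higher genes. Libraries of the genotypes were apart in both states for 113 of the 170 (4.44% of all tested genes were so apart downward) and for 23 of the 46 (4.09% upward). In all, 208 of the 216 changed the same way in all 4 pairs. Across all tested genes 13.1% were lower and 15.7% higher in all 4 pairs. The 216 were chosen on these same libraries, so their agreement across pairs and states follows in part from that choice.

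The fit without pairs, with medium as the covariate, called 0 genes in edgeR. It gave 1531 genes (7.67%) an unadjusted p below 0.05, and DESeq2 on the same design called 202 lower and 43 higher, 104 of which were among the 216. Adjusted p-values of the 216 lay between 0.0264 and 0.0499, close to the threshold. Refitted without serum pair 1 or 2 the paired fit called 94 or 76 genes, 63 or 51 of them among the 216, and without EpiSC pair 1 or 2 it called 4 or 1 (3 or 1 of the 216). In bulk RNA, fewer cells of a type and less RNA per cell cannot be told apart, here and below.

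The lowest genes included ones known from meiosis, sperm structure, and cytokine and interferon responses. Hfm1, which codes for a DNA helicase of meiotic crossover formation, was at 2.12 and 0.548 against 12.7 and 3.28 CPM in serum and 0.408 and 0.0347 against 6.44 and 1.87 in EpiSC (knockout against wild type). Each knockout library lay far below its partner, while wild-type replicate 1 exceeded replicate 2 in both states. Its log2 fold change was -3.23 ± 0.39, adjusted p = 0.0264. Spag16, a gene for a protein of the sperm flagellum, was at 0.411 and 0.152 against 2.73 and 1.59 CPM in serum and 0.220 and 0.243 against 1.32 and 1.90 in EpiSC, with no overlap in either state (-2.88 ± 0.32, adjusted p = 0.0264).

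Alpk1, an innate immune kinase that senses bacterial sugars, was mainly an EpiSC transcript and was at 0.0685 and 0.152 against 0.763 and 0.663 CPM in serum and 0.911 and 1.07 against 6.37 and 4.34 in EpiSC (-2.48 ± 0.32, adjusted p = 0.0265). Il3ra, the alpha chain of the interleukin 3 receptor, was at 2.36 and 0.700 against 5.09 and 4.54 CPM in serum and 1.29 and 0.694 against 10.9 and 8.03 in EpiSC (-2.56 ± 0.39, adjusted p = 0.0387). The interferon-induced gene Ifit2 was at 0.685 and 0.335 against 6.90 and 3.22 CPM in serum and 1.01 and 1.70 against 3.11 and 4.02 in EpiSC (-2.28 ± 0.41, adjusted p = 0.0497). All 3 were lower in 4 of 4 pairs. Casp8, the initiator caspase of death receptors, was at 0.616 and 0.365 against 4.01 and 0.995 CPM in serum and 4.02 and 1.35 against 11.6 and 7.41 in EpiSC (-2.04 ± 0.28, adjusted p = 0.0293). Ikzf1, which codes for the lymphoid factor Ikaros, was at 0.342 and 0.335 against 2.13 and 1.33 CPM in serum and 0.377 and 1.94 against 2.14 and 5.15 in EpiSC (-2.06 ± 0.31, adjusted p = 0.0371). In EpiSC its knockout replicate 2 lay near wild-type replicate 1, so that its fall shows within pairs.

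Among called genes with a mean of at least 1 CPM and a gene symbol that is no clone name, the others of the 15 lowest were Tceal1 (-2.75), Tmem150c (-2.68), Rbp4, the plasma carrier of retinol (-2.39), the sialyltransferase gene St8sia6 (-2.23), the neuronal secreted factor Lgi2 (-2.20), Ccdc125 (-2.13) and CN725425 (-2.07), all as log2 fold changes with adjusted p between 0.0264 and 0.0469. CN725425 was at 1 or 2 reads in each EpiSC library, and its call came from serum. Mageb4, an X-linked gene of the MAGE family, was also among the 15 (-2.05). It was at 10.00 and 0.244 CPM in serum knockout cells against 46.1 and 0.796 in wild type and had 0 reads in all 4 EpiSC libraries, where 3 reads would be 0.0893 to 0.104 CPM. Its replicates differed far more than its genotypes, and the unpaired adjusted p was 0.842.

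Of moderate size but close between replicates were Man2a2, which codes for a Golgi mannosidase of N-glycan trimming, and Zfp518a, a zinc finger gene. Man2a2 was at 16.0 and 17.4 against 31.5 and 29.8 CPM in serum and 35.6 and 35.2 against 60.1 and 64.9 in EpiSC, and its libraries were apart in both states by more than the spread within a group (-0.85 ± 0.09, adjusted p = 0.0264). Zfp518a was at 96.4 and 103 against 179.8 and 158 CPM in serum and 47.5 and 51.0 against 70.6 and 81.9 in EpiSC (-0.69 ± 0.08, adjusted p = 0.0264). Without pairs Man2a2, Alpk1, Spag16, Zfp518a and Rassf4 had the smallest p-values of the falling genes and none passed the test (adjusted p = 0.308 for each). Rassf4, a Ras association domain gene, was at 2.19 and 2.86 against 8.90 and 5.90 CPM in serum and 0.942 and 1.25 against 4.52 and 3.57 in EpiSC.

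**Figure D2:**
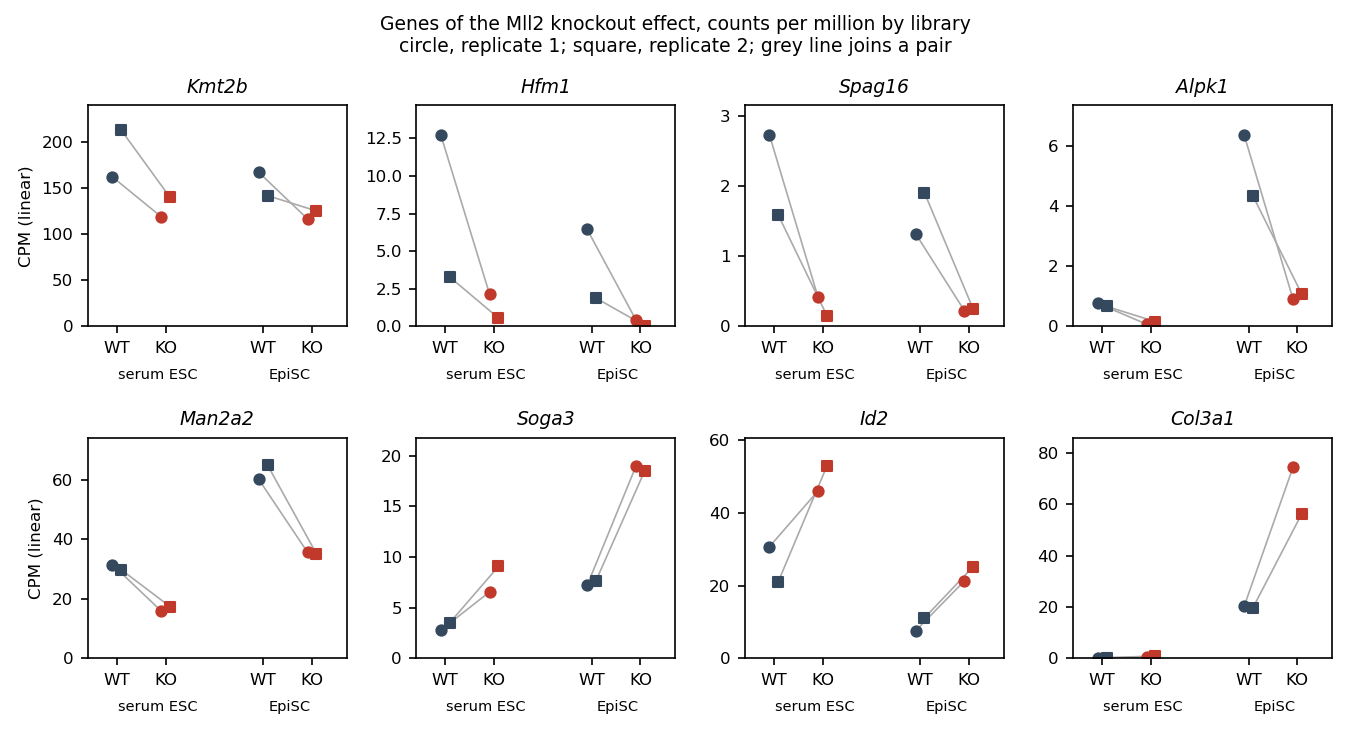
CPM (y axis, linear, starting at 0) of 8 genes in the 4 wild-type (WT, dark) and 4 knockout (KO, red) libraries of serum ESC and EpiSC. Circles are replicate 1, squares replicate 2 and grey lines join a pair. Kmt2b, Hfm1, Spag16, Alpk1 and Man2a2 are lower in all 4 knockout libraries than in their partners, and Soga3, Id2 and Col3a1 are higher.

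Among the genes that rose were a regulator of differentiation, matrix and adhesion genes and a developmental homeobox gene. Id2, an inhibitor of basic helix-loop-helix factors, was at 46.01 and 52.8 against 30.6 and 21.0 CPM in serum and 21.3 and 25.2 against 7.63 and 11.1 in EpiSC (1.14 ± 0.15, adjusted p = 0.027), apart in both states. Soga3 was at 6.57 and 9.08 against 2.80 and 3.51 CPM in serum and 19.0 and 18.5 against 7.22 and 7.68 in EpiSC (1.32 ± 0.13, adjusted p = 0.0264), again with no overlap. Meis1, which codes for a homeobox cofactor of Hox proteins, was at 1.13 and 2.86 against 0.572 and 0.995 CPM in serum and 9.52 and 5.79 against 3.86 and 2.68 in EpiSC (1.24 ± 0.21, adjusted p = 0.0432). Etv1, an ETS factor gene, was at 23.9 and 18.7 against 10.8 and 12.8 CPM in serum and 56.1 and 53.7 against 34.0 and 33.6 in EpiSC (0.77 ± 0.11, adjusted p = 0.0371).

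Most other genes with large rises were expressed mainly in EpiSC. Foxq1, a forkhead factor gene, was at 0.240 and 0.457 against 0.223 and 0.0995 CPM in serum and 53.5 and 27.5 against 8.42 and 4.79 in EpiSC (2.37 ± 0.30, adjusted p = 0.0264). Cdh6, a cadherin gene, was at 0.240 and 0.274 against 0.127 and 0.133 CPM in serum and 7.95 and 8.29 against 1.13 and 1.40 in EpiSC (2.27 ± 0.38, adjusted p = 0.0436), and in serum its 4 libraries held 4 to 9 reads. Col3a1, a fibrillar collagen gene, was at 0.479 and 0.975 against 0.254 and 0.298 CPM in serum and 74.4 and 56.3 against 20.3 and 19.8 in EpiSC (1.63 ± 0.15, adjusted p = 0.0264). Tnc, the matrix protein tenascin C, was at 163 and 338 CPM in EpiSC knockout cells against 58.2 and 161 in wild type. In serum it had 0 and 31 reads in knockout cells against 0 and 16 in wild type. Over both states its log2 fold change was 1.23 ± 0.13 (adjusted p = 0.0264). The paired fit of all 36 libraries did not call it (adjusted p = 0.285). Nor did that fit call Zfp518a (adjusted p = 0.0647), Ccl20 (0.127), CN725425 (0.407) or Mageb4 (log2 fold change -1.01). The chemokine gene Ccl20 (log2 fold change 1.58) and the surface antigen gene Ly6a (1.39) rose too, higher in all 4 pairs with overlapping groups in EpiSC. Ly6a, for example, was at 5.75 and 19.3 CPM in EpiSC knockout cells against 2.10 and 9.49 in wild type.

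Markers of other cells moved with some of these. The 8 fibroblast and feeder markers, 7 of which were tested and of which Lum was below the filter, summed to 2537 and 3953 CPM in EpiSC knockout cells against 2114 and 3532 in wild type, and to 1423 and 1075 against 1688 and 1573 in serum. Of the 15 tested genes of the longer fibroblast list, Col3a1 rose and no other passed the test (median 0.19). The 5 trophoblast markers summed to 89.9 and 122 CPM in EpiSC knockout cells against 36.6 and 71.0, and the 5 neural markers to 653 and 874 against 439 and 600.3. Their part in the rises was not tested.

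Promoters of the lowered genes had about as many CG dinucleotides as those of all genes. RefSeq promoters (GRCm38.p6, 250 bases before to 50 after the start) matched 121 of the 170 lower genes, 32 of the 46 higher ones and 12474 of all tested genes. The median was 20 CG per 300 bases for the lower genes, 17.5 for the higher ones and 20 for all. Fewer than 5 CG were found in 4 of 121 promoters of lower genes (3.31%), in 3 of 32 of higher genes (9.38%) and in 9.88% of all. The 250 bases before the start of Hfm1 (chr5:106925891-106926140, minus strand), Spag16 (chr1:69826720-69826969, plus strand) and Soga3 (chr10:29143746-29143995, plus strand) are shown because Hfm1 and Spag16 had the lowest log2 fold changes under that naming rule and Soga3 rose in both states. Capitals mark each CG, the letters that a CXXC finger can bind.
Hfm1: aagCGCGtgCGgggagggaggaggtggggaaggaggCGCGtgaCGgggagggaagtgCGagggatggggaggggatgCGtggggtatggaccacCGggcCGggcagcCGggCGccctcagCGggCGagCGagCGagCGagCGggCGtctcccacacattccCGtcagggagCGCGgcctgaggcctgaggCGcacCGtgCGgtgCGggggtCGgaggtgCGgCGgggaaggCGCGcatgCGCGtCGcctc
Spag16: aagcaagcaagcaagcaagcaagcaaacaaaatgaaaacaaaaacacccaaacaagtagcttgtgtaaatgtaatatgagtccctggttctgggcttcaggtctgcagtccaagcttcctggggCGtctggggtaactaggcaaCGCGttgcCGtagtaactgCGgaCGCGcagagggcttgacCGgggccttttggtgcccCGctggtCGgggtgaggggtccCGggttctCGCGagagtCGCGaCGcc
Soga3: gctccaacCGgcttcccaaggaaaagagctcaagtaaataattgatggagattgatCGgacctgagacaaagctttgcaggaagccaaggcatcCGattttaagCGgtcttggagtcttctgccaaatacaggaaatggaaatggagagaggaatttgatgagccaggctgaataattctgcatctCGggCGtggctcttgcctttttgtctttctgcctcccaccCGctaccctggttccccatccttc

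There are 34 CG in the stretch of Hfm1, 16 in that of Spag16 and 7 in that of Soga3. The RefSeq start lies 431 bases from the GENCODE gene start for Hfm1, 157 bases for Soga3 and on it for Spag16. These counts are descriptions of 3 promoters.

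Several germ cell and meiosis genes fell in the knockout cells. In the germline list Sycp1, a protein of the synaptonemal complex, was the only called gene of 19 tested, and the median log2 fold change was -1.01 against 0.01 over all genes. Sycp1 was at 4.55 and 1.49 against 17.9 and 6.56 CPM in serum and 0.0314 and 0.139 against 0 and 0.357 in EpiSC (-1.88 ± 0.34, adjusted p = 0.0497). Within serum ESC 5 of the 19 were lower and 0 higher in the paired fit (background 0.807% lower). Dazl, an RNA-binding protein of germ cells, was at 5.82 and 3.59 CPM in serum knockout cells against 23.0 and 12.1 in wild type (log2 fold change -1.87 ± 0.27, adjusted p = 0.0266), and the RNA helicase gene Ddx4 was at 14.5 and 9.75 CPM in serum knockout cells against 29.9 and 25.7 in wild type (-1.22 ± 0.19, adjusted p = 0.0327). In EpiSC most of these genes were near 0, and the median there was 0.18. Without serum pair 1, the pair with the larger levels of many of these genes, the list's median was -0.45.

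A longer meiosis and spermatogenesis list, put together after values were seen, held 9 called genes of 25, all lower (0.852% of all genes were; median -0.90). These were Hfm1, Spag16 and Sycp1 with Tex15, Tdrd5, Ddx25, Cntd1, Mak and Spag4. The members were chosen with values known, so the count is no test against the share over all genes. The same holds for the other lists below that were made after values were seen. Tex15, needed for silencing of transposons in male germ cells, was at 65.8 and 44.7 against 173 and 77.4 CPM in serum and 5.75 and 21.9 against 18.9 and 42.8 in EpiSC (-1.20 ± 0.15, adjusted p = 0.0264). Tdrd5, a tudor protein of the germ granule, was at 3.70 and 3.56 against 13.3 and 11.2 CPM in serum and 4.24 and 18.9 against 17.8 and 37.6 in EpiSC (-1.62 ± 0.19, adjusted p = 0.0264). The testis RNA helicase gene Ddx25 was at 4.86 and 4.54 against 13.0 and 10.0 CPM in serum and 10.1 and 6.35 against 26.0 and 14.0 in EpiSC (-1.27 ± 0.13, adjusted p = 0.0264). In each of these 3 genes the knockout library of every pair was the lower one. Without either EpiSC pair 0 of the 25 were called, with medians of -0.81 and -0.86.

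Cholesterol synthesis genes leaned lower by small amounts. All 20 members had log2 fold changes below 0 over both states (median -0.35). The median was -0.26 in serum and -0.46 in EpiSC. Of the members, 14 had an unadjusted p below 0.05 (background 10.4% with that sign), while 3 passed the adjusted test. Insig1, the sterol-regulated brake on SREBP processing, was at 107 and 62.4 against 187 and 118 CPM in serum and 157 and 148 against 348 and 221 in EpiSC (-0.86 ± 0.10, adjusted p = 0.0264). Dhcr7, the last enzyme of cholesterol synthesis, was at 78.9 and 56.7 against 113 and 76.0 CPM in serum and 138 and 112 against 249.99 and 171 in EpiSC (-0.60 ± 0.09, adjusted p = 0.0362). Msmo1, a sterol C4 methyl oxidase, was at 139.7 and 87.2 against 190.0 and 115 CPM in serum and 479 and 378 against 849 and 531 in EpiSC (-0.54 ± 0.09, adjusted p = 0.0419). Insig1 libraries were apart in both states, those of Dhcr7 and Msmo1 in EpiSC alone, and all 3 genes were lower in 4 of 4 pairs.

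Further SREBP-linked genes, from a list made after values were seen, had 4 of 17 called, all lower (background 0.852%), and 0 called without either EpiSC pair or without serum pair 2. Stard4, a sterol carrier, was at 53.3 and 37.1 against 91.7 and 57.7 CPM in serum and 154 and 179.7 against 216 and 251 in EpiSC (-0.60 ± 0.08, adjusted p = 0.0265). The desaturase gene Scd1 had a log2 fold change of -0.57 and the desaturase gene Fads1 of -0.52. Of 14 cholesterol list promoters in RefSeq, that of Hmgcs1 held the sterol element TCACNCCAC on either strand in its 300 bases (7.14%), against 1.15% of all promoters. Of the 12 promoters of the SREBP-linked list 0 held it. Among the 121 promoters of called lower genes 1 held it (Mak, 0.826%).

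Antigen presentation genes of class I also leaned lower. In a list made after values were seen, 3 of 23 were called, all lower (background 0.852%), and 13 had an unadjusted p below 0.05 on the lower side (background 10.4%) and 0 on the higher side. The median was -0.55, and 0 were called without either EpiSC pair. H2-K1, a classical heavy chain gene, was at 19.0 and 28.7 against 42.5 and 37.6 CPM in serum and 72.4 and 101 against 209.5 and 189 in EpiSC (-1.001 ± 0.16, adjusted p = 0.0419), apart in both states. H2-D1, the other classical one, was at 11.1 and 12.0 against 21.8 and 15.1 CPM in serum and 20.7 and 32.0 against 55.3 and 63.1 in EpiSC (-0.93 ± 0.16, adjusted p = 0.0474). H2-Q6, a class Ib gene, was at 0.377 and 0.183 against 1.94 and 1.72 CPM in serum and 0.0628 and 0.208 against 0.408 and 1.01 in EpiSC (-2.60 ± 0.37, adjusted p = 0.0347). These genes are near-identical copies of each other, so how reads were split among them is uncertain. B2m, the shared light chain and no copy of them, was at 5.07 and 4.90 against 14.0 and 8.52 CPM in serum and 35.2 and 51.4 against 60.1 and 68.1 in EpiSC and missed the threshold over both states (-0.83 ± 0.16, adjusted p = 0.0555), while within serum it fell (-1.14 ± 0.19, adjusted p = 0.0382).

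ERK feedback genes leaned upward. Spry2, a feedback inhibitor of receptor tyrosine kinase signalling, was at 78.1 and 98.8 against 54.3 and 67.6 CPM in serum and 93.2 and 97.3 against 40.8 and 54.7 in EpiSC (0.77 ± 0.12, adjusted p = 0.0387), apart in both states, and was the 1 called of 18 (0.231% of all genes were called higher). Another 7 members had an unadjusted p below 0.05 on the higher side (background 9.69%) and 0 on the lower side, and the median was 0.27. Within EpiSC 5 were higher (background 1.66%), among them Myc at 59.8 and 84.3 CPM in EpiSC knockout cells against 16.0 and 50.5 in wild type (1.30 ± 0.26, adjusted p = 0.0329) and the ERK phosphatase gene Dusp6 at 287 and 466 CPM in EpiSC knockout cells against 105 and 299 in wild type (1.04 ± 0.17, adjusted p = 0.0186).

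Hox genes, which pattern the body axis, were at low levels (a median of 0.637 CPM over the 27 tested). Of these, 26 had log2 fold changes above 0 (median 1.16), 11 had an unadjusted p below 0.05 on the higher side (background 9.69%) and 0 passed the adjusted test. Hoxc8 had the smallest p, at 0.171 and 0.0609 against 0.0318 and 0 CPM in serum and 4.93 and 0.485 against 0.408 and 0.238 in EpiSC (log2 fold change 2.55 ± 0.60, adjusted p = 0.0819). EpiSC knockout replicate 1 held the highest level of that gene, and without EpiSC pair 1 the median over the 20 genes then tested was 0.71.

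Secreted signals of the TGF-beta family went in both directions. In a list of 22 tested ligands, made after values were seen, 3 were called over both states and all were lower (background 0.852%). The log2 fold changes of these 3 are over both states. Bmp2 was at 22.7 and 30.2 CPM in EpiSC knockout cells against 64.5 and 130.2 in wild type (-1.71 ± 0.21, adjusted p = 0.0264), Bmp7 at 3.49 and 3.05 against 6.17 and 4.01 CPM in serum and 15.0 and 29.4 against 38.5 and 78.3 in EpiSC (-1.05 ± 0.18, adjusted p = 0.0436) and Tgfb2 at 40.9 and 39.3 CPM in EpiSC knockout cells against 74.7 and 68.8 in wild type (-0.77 ± 0.11, adjusted p = 0.0371). Within EpiSC 5 ligands were lower and 3 higher (background 2.64% and 1.66%). One of the higher ones was Gdf3, at 2.29 and 5.96 CPM in EpiSC knockout cells against 0.377 and 1.76 in wild type (2.00 ± 0.21, adjusted p = 0.00501).

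Single members were called in other lists. Bok, a BCL2 family member, was at 12.1 and 9.29 against 18.4 and 17.4 CPM in serum and 8.67 and 5.55 against 19.0 and 13.7 in EpiSC (-0.98 ± 0.15, adjusted p = 0.038), 1 of 18 genes of that family. Of 35 imprinted genes Nnat (1.85 and 13.1 against 3.97 and 23.5 CPM in serum and 60.5 and 48.0 against 106 and 141 in EpiSC; -1.08 ± 0.14, adjusted p = 0.0265) and Sgce (-0.80 ± 0.14, adjusted p = 0.0477) fell. The cyclin gene Ccnd1 rose among 14 Wnt targets (0.56 ± 0.10, adjusted p = 0.0485), and the kinase gene Plk2 among 20 p53 targets (0.82 ± 0.14, adjusted p = 0.0477). Meis1 was the 1 called of 41 bivalent developmental regulators, whose median was 0.47, with 31 of 41 above 0 and 11 at an unadjusted p below 0.05 on the higher side (background 9.69%). Foxq1 was the 1 called of 15 primitive endoderm genes.

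No member passed over both states in the lists of H3K4 demethylases (6 tested), exon junction complex and nonsense-mediated decay (20), Polycomb complexes (32), DNA methylation (12), general (12), naive (18) and formative (19) pluripotency, mesendoderm (14), neural (13), trophoblast (11), 2-cell-like (2), Nodal and Activin (15), integrated stress response (18), mitochondrially encoded (13) and oestrogen response genes (11), the last fixed because of tamoxifen. The members of smallest p were Rybp in the Polycomb list (log2 fold change 0.35 ± 0.08, adjusted p = 0.0798), the de novo methyltransferase gene Dnmt3b in the DNA methylation and formative lists (0.34 ± 0.07, adjusted p = 0.0561), Lin28b in general pluripotency (-0.56 ± 0.18, adjusted p = 0.15), Tfcp2l1 in naive pluripotency (-0.50 ± 0.13, adjusted p = 0.0947), Wnt3 in mesendoderm (0.92 ± 0.25, adjusted p = 0.106) and Igfbp4 in the oestrogen list (-0.99 ± 0.19, adjusted p = 0.0569). Cdx2, which specifies trophoblast, was at 9.49 and 8.18 CPM in EpiSC knockout cells against 1.07 and 3.12 in wild type (2.12 ± 0.48, adjusted p = 0.0782). Within single states the oestrogen list did hold calls. In serum 1 of the 11 was lower and 0 higher (background 0.807% and 0.105%). In EpiSC 1 was lower and 1 higher (2.64% and 1.66%). Libraries were apart in both states downward for 2 of the 11 (4.44% of all genes) and upward for 0 (4.09%).

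Within EpiSC alone, naive genes were called lower, and general pluripotency and Nodal genes higher (background 2.64% lower and 1.66% higher). Of 18 naive genes 4 were lower and 0 higher, namely Zfp42, Tfcp2l1, Nr5a2 and Dppa3, all far below their serum levels in every EpiSC library. The Dppa3 call rested on 16 reads in wild-type replicate 2, with 0 in the other EpiSC libraries. Tfcp2l1, a naive state transcription factor gene, was at 18.3 and 16.2 CPM in EpiSC knockout cells against 35.0 and 24.8 in wild type (-0.78 ± 0.13, adjusted p = 0.019). Of 12 general pluripotency genes 4 were higher and 0 lower, namely Pou5f1, Tdgf1, Dppa2 and Dppa4. Pou5f1, which codes for Oct4, was at 362 and 378 CPM in EpiSC knockout cells against 257 and 222 in wild type (0.63 ± 0.10, adjusted p = 0.0184). Of 15 Nodal and Activin genes 4 were higher and 0 lower, namely Lefty1, Smad7, Skil and again Tdgf1, the Nodal co-receptor. Smad7, an inhibitor of the pathway, was at 69.5 and 54.2 CPM in EpiSC knockout cells against 37.6 and 17.5 in wild type (1.25 ± 0.18, adjusted p = 0.013).

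**Figure D3:**
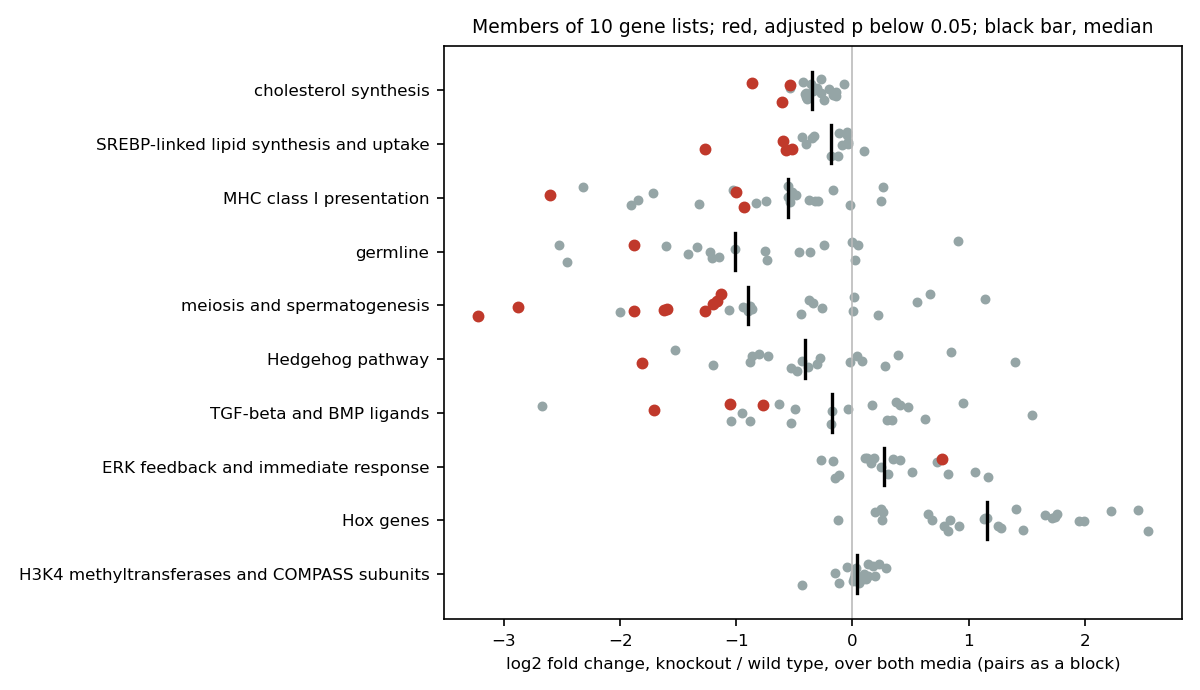
Log2 fold changes (x axis, knockout over wild type over both states, pairs as a block) of the tested members of 10 gene lists, 1 point per gene, with red points at an adjusted p below 0.05 and black bars at the median. All 20 cholesterol genes lie below 0, and 26 of the 27 Hox genes above 0 with none red.

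Taken within 1 state, the paired fit called 182 genes in serum (161 lower, 21 higher, 0.912% of those tested) and 859 in EpiSC (527 lower, 332 higher, 4.31%). The unpaired fit called 0 in either (763 and 1202 at an unadjusted p below 0.05 in edgeR), and DESeq2 without pairs called 64 and 135. In both states and in the same direction 48 genes were called, 43 lower and 5 higher, which is 26.4% of the serum calls and 5.59% of the EpiSC calls. The sign was shared by 81.9% of serum calls and 79.6% of EpiSC calls, and by 61.2% of all tested genes. Of the EpiSC calls, 99 had a mean below 1 CPM in serum.

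Among called genes of at least 1 CPM over the 8 libraries with a symbol that is no clone name, the largest falls in serum beyond Ifit2 and Spag16 were in Trim30d, Magohb and Otud6a. Magohb codes for a core subunit of the exon junction complex, which marks spliced messages. It was at 3.80 and 1.46 CPM in serum knockout cells against 21.4 and 18.7 in wild type (-3.03 ± 0.29, adjusted p = 0.00858). In EpiSC it was at 11.4 and 10.1 against 11.3 and 11.6 CPM (-0.09 ± 0.25, adjusted p = 0.874). The serum groups were far apart and the EpiSC groups overlapped, and the difference between the states missed the threshold (2.94 ± 0.38, adjusted p = 0.0562). Magoh, the paralogue with the same role, was at 84.6 and 89.7 against 79.1 and 85.1 CPM in serum and 82.2 and 77.1 against 55.5 and 71.6 in EpiSC and did not pass in either state. Of the 20 genes of the exon junction list, Magohb alone was called in serum.

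The 250 bases before the start of Magohb (chr6:131293245-131293494, minus strand) and Magoh (chr4:107879505-107879754, plus strand), RefSeq on GRCm38.p6, are given to compare paralogues that differed in response. Each CG is in capitals.
Magohb: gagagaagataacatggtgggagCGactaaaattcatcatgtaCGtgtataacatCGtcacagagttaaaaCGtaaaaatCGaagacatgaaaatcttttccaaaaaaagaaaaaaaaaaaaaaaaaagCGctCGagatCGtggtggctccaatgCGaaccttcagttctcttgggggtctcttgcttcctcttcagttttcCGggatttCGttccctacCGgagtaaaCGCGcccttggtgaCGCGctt
Magoh: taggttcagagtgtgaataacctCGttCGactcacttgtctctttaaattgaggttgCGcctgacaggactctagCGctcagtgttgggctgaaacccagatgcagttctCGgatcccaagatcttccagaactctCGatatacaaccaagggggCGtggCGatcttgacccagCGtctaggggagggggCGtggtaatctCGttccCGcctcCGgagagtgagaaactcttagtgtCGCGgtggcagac

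They hold 16 and 15 CG, and over the full 300 bases 25 and 22, against the median of 20 over all genes.

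Trim30d, a TRIM family gene, had 2 and 0 reads in the serum knockout libraries against 38 and 28 in wild type, and Otud6a, an X-linked deubiquitinase gene, was at 1.37 and 0.0609 CPM in serum knockout cells against 10.2 and 0.630 in wild type with most reads in replicate 1. Under the same limits the largest rises in serum were in Mxd4, an antagonist of Myc (6.23 and 6.00 CPM in serum knockout cells against 2.96 and 1.33 in wild type; 1.56 ± 0.26, adjusted p = 0.0382), Evi5l (1.49) and Fgfbp1 (1.37).

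Under the same limits the lowest genes in EpiSC were Dppa3, Foxd4, Hfm1, Rasgrp1 and Tceal1. Foxd4, a forkhead factor gene, was at 0.157 and 0.0347 CPM in EpiSC knockout cells against 3.27 and 5.56 in wild type (-5.38 ± 0.81, adjusted p = 0.015). Rasgrp1, a Ras exchange factor gene, was at 0.126 and 0.173 CPM in EpiSC knockout cells against 2.64 and 1.37 in wild type (-3.68 ± 0.63, adjusted p = 0.021). Dppa3, which met the 1 CPM limit through its serum libraries, had 16 reads in wild-type replicate 2 and 0 in the other 3 EpiSC libraries, so that its call rested on 1 library. The largest rises were in the collagen gene Col6a5 (2.64 and 2.05 CPM in EpiSC knockout cells against 0.0628 and 0.268 in wild type), the protocadherin gene Pcdh17 (5.18 and 12.8 CPM in EpiSC knockout cells against 0.345 and 1.37 in wild type) and the glucose transporter gene Slc5a1 (1.16 and 1.14 CPM in EpiSC knockout cells against 0.0942 and 0.119 in wild type), with adjusted p of 0.0187, 0.0205 and 0.00909.

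Hedgehog pathway genes were among those whose change differed between the states. In this pathway the ligand Shh binds the receptor Ptch1, which releases Smo and activates Gli factors, and Ptch1, Hhip and Gli1 are themselves induced by the signal. Shh had 2 reads in 1 serum library and 0 in the other 3, and was at 13.0 and 23.8 CPM in EpiSC knockout cells against 38.2 and 97.8 in wild type (-1.80 ± 0.17, adjusted p = 0.00534). Ptch1 was at 121 and 94.9 against 112 and 137 CPM in serum and 47.5 and 59.1 against 318 and 457 in EpiSC. Its groups overlapped in serum and were far apart in EpiSC (log2 fold change -0.21 in serum and -2.85 in EpiSC; EpiSC minus serum -2.63 ± 0.21, adjusted p = 0.00765).

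Gli1 was at 60.8 and 42.6 against 48.1 and 47.0 CPM in serum and 2.42 and 3.43 against 22.0 and 19.5 in EpiSC (EpiSC minus serum -2.94 ± 0.27, adjusted p = 0.0128). Gli3, mainly a repressor of the pathway, fell in serum and did not pass in EpiSC: it was at 6.71 and 6.73 against 18.6 and 16.2 CPM in serum and 69.4 and 68.7 against 63.4 and 57.7 in EpiSC (-1.37 in serum; EpiSC minus serum 1.56 ± 0.17, adjusted p = 0.0265). Gpr161, a receptor that restrains the pathway, was at 4.35 and 4.35 CPM in serum knockout cells against 14.3 and 10.8 in wild type (-1.51 ± 0.22, adjusted p = 0.0266). Of 20 tested genes of a Hedgehog list made after values were seen, 5 were lower in EpiSC (background 2.64%) and 2 in serum (0.807%), none was higher, and 3 differed between the states (0.0652%). None of the 15 Hedgehog promoters in RefSeq held the Gli motif TGGGTGGTC on either strand, which 0.2% of all promoters held.

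In all 13 genes had different effects in the states in the paired fit (8 more negative in EpiSC and 5 more positive, 0.0652% of those tested). The unpaired fit called 0 (523 at an unadjusted p below 0.05 in edgeR) and DESeq2 5. H19, an imprinted long noncoding RNA, moved in opposite directions: it was at 39.9 and 72.4 against 19.0 and 25.1 CPM in serum and 95.8 and 15.1 against 244 and 48.2 in EpiSC, 1.30 in serum (adjusted p = 0.0107) and -1.50 in EpiSC (adjusted p = 0.00432; EpiSC minus serum -2.80 ± 0.20, adjusted p = 0.00696). Its imprinted neighbour Igf2 was at 128 and 46.4 CPM in EpiSC knockout cells against 464 and 153 in wild type (-1.79 ± 0.22, adjusted p = 0.00758). Tenm3, a teneurin adhesion gene of neurons, fell in serum and did not pass in EpiSC, at 7.57 and 14.2 against 36.5 and 56.8 CPM in serum and 116 and 72.9 against 112 and 76.6 in EpiSC (EpiSC minus serum 2.12 ± 0.16, adjusted p = 0.00696). The transporter gene Slco5a1 fell in serum and rose in EpiSC, at 15.3 and 7.95 against 31.3 and 14.5 CPM in serum and 44.5 and 47.8 against 21.8 and 20.3 in EpiSC (EpiSC minus serum 2.09 ± 0.19, adjusted p = 0.0128). Inhbb, an activin subunit gene, was at 97.8 and 6.43 against 109 and 8.29 CPM in serum and 6.91 and 3.61 against 1.57 and 1.01 in EpiSC, with replicate 1 far above replicate 2 in serum (EpiSC minus serum 2.25 ± 0.22, adjusted p = 0.0188). Adcy3, Cldn6, She, Tek and the small RNA genes Gm23935 and Gm24270 were the others.

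**Figure D4:**
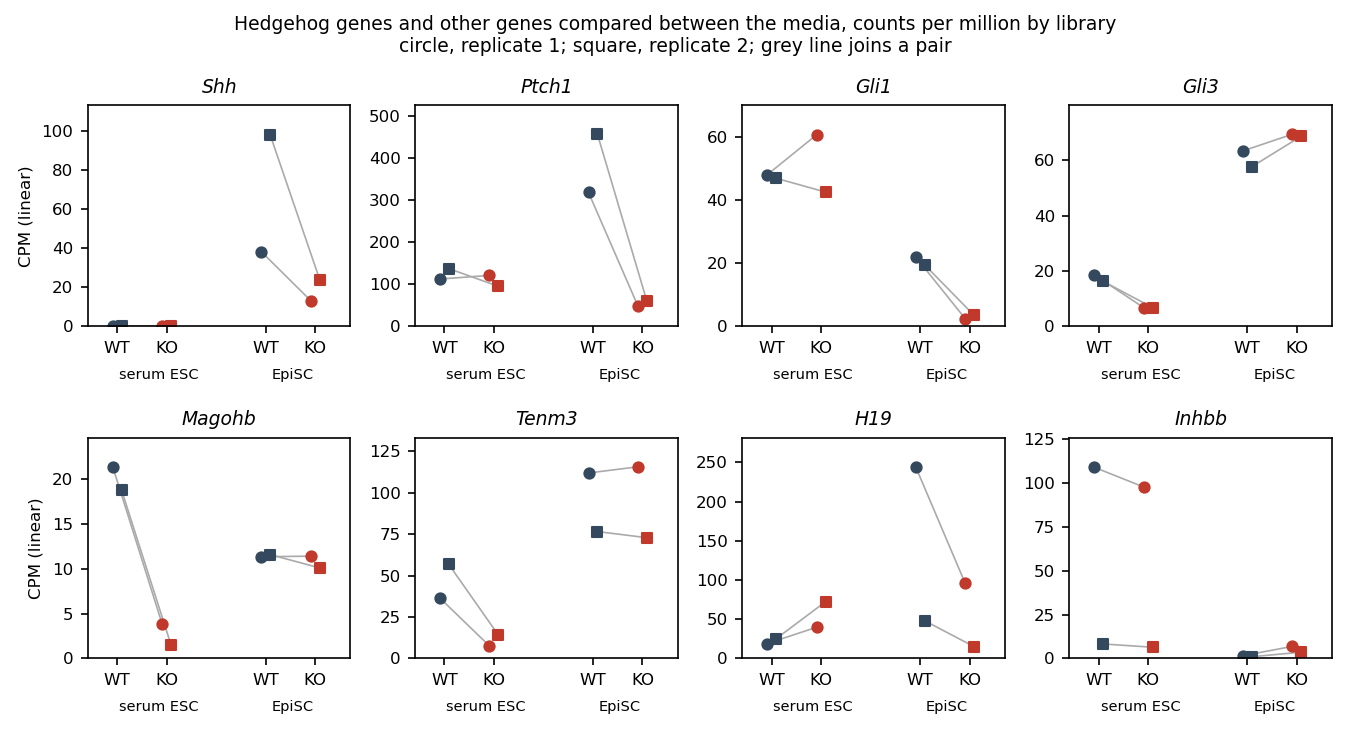
CPM (y axis, linear, starting at 0) of 8 genes in wild-type (WT, dark) and knockout (KO, red) libraries, with circles for replicate 1, squares for replicate 2 and grey lines joining pairs. Shh, Ptch1 and Gli1 are lower in both EpiSC knockout libraries than in wild type, Shh is near 0 in serum, Gli3, Magohb and Tenm3 are low in serum knockout cells, and H19 moves in opposite directions.

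**Figure D5:**
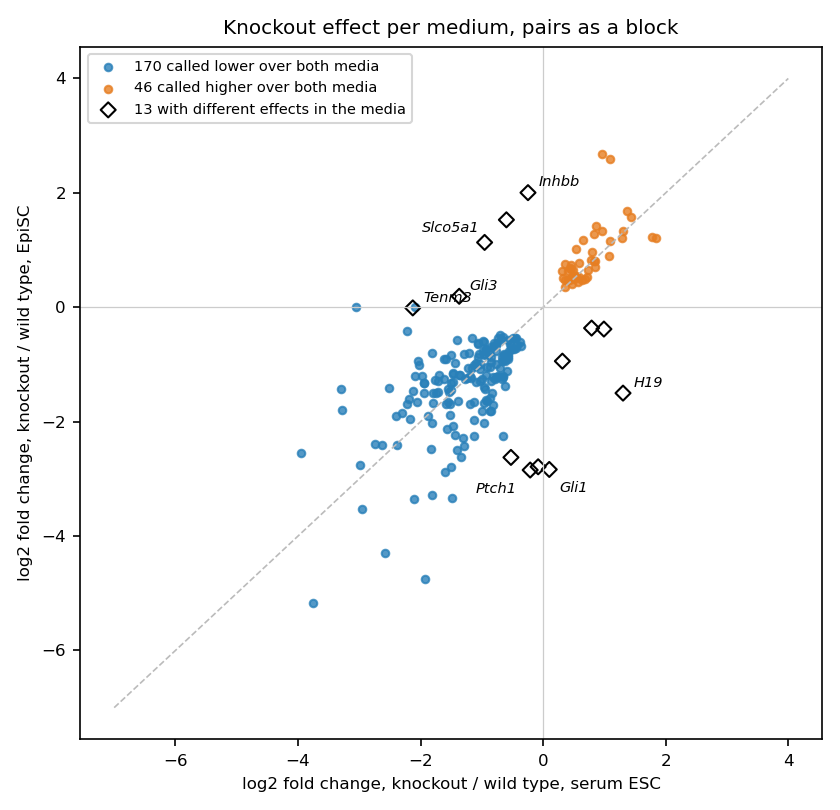
Log2 fold changes (knockout over wild type, pairs as a block) in serum ESC (x axis) and EpiSC (y axis), 1 point per gene. Blue points are the 170 genes called lower over both states, orange points the 46 called higher, and diamonds the 13 with different effects. All but 1 of the lower genes have the same sign in both states.

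In Mll2 cells grown in 2i medium (LIF with the inhibitors PD0325901 and CT99021), most of the 216 genes had the same sign. Of the 2i libraries, the one labelled wild type replicate 2 went against its label in Kmt2b (83.5 CPM, against 179.7 in the other wild-type library and 136 and 144 in the knockout ones). With pairs, 134 of the 170 lower genes were below 0 in 2i (49.1% of all genes) and 52 were called lower there (1.65% of all), and 41 of the 46 higher genes were above 0 with 12 called (1.12% of all). The 2i libraries were not used to choose the 216. Hfm1 was at 0.0297 and 0.0646 CPM against 0.425 and 0.834 in 2i (-3.64 ± 0.64, adjusted p = 0.0245), and Col3a1 (3.01), Id2 (1.54) and Tnc (2.66) rose there too. Magohb in 2i was at 0.0891 and 0.291 CPM against 1.84 and 11.7 (-5.02 ± 0.47, adjusted p = 0.00493). In Hfm1 and Magohb wild type replicate 2 was above both knockout libraries, unlike in Kmt2b.

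The effect over serum and EpiSC differed from that in 2i for 39 genes with pairs (16 more negative, 23 more positive, 0.186% of 20935) and for 0 without (1029 at an unadjusted p below 0.05 in edgeR; DESeq2 called 61). Without the second 2i pair 204 were called. Lin28b, an inhibitor of let-7 maturation, fell in 2i: its level there was 1.01 and 0.355 CPM against 15.7 and 5.43, a log2 fold change of -3.94, and over serum and EpiSC it was -0.56 (difference 3.37 ± 0.25, adjusted p = 0.00773). That -0.56 is an average over the states. In serum Lin28b had 959 and 1408 reads in knockout cells against 2239 and 2477 in wild type, with no overlap. In EpiSC it had 4758 and 3219 reads against 4955 and 4150, and the groups overlapped. H19 rose in 2i (3.29; difference -3.40 ± 0.28, adjusted p = 0.00802), as did the keratin gene Krt19 (3.09; difference -3.40 ± 0.35, adjusted p = 0.0169). The H19 effect set against 2i averages a rise in serum and a fall in EpiSC. The GTPase gene Gtpbp10 and Svip fell in 2i by 2.54 and 3.39 on the log2 scale and were at 0.07 and -0.04 here (differences 2.60 ± 0.24, adjusted p = 0.0169, and 3.35 ± 0.34, adjusted p = 0.0169). Of the 216 genes, 2 differed from 2i in this test.

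Against Setd1a and Bod1L loss in the same states, the 216 genes were compared in the same way. Of the 170 lower genes, 80 were below 0 after Setd1a loss (48.3% of all genes; 17 called lower, background 8.07%) and 105 after Bod1L loss (45.8%; 14 called, background 3.79%). Of the 46 higher genes 26 and 32 were above 0 (51.7% and 54.2% of all). Tested directly, the Mll2 effect differed from the Setd1a effect in 230 genes without pairs (30 more negative, 200 more positive, 1.07% of 21501), 10 of them among the 216. It differed from the Bod1L effect in 24 genes (all more positive, 0.112% of 21446), 0 of them among the 216. With pairs the counts were 1954 (9.09%) and 847 (3.95%), which held 117 and 107 of the 216.

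Several genes of smallest p in these differences had overlapping knockout and wild-type levels after Mll2 loss. Det1, a ubiquitin ligase adaptor gene, was at 9.65 and 11.7 against 10.2 and 11.0 CPM in serum and 12.8 and 12.8 against 10.3 and 13.1 in EpiSC (Mll2 minus Setd1a 3.31 ± 0.30, adjusted p = 0.000842, Mll2 minus Bod1L 2.82 ± 0.26, adjusted p = 0.00297). Ufl1, the ligase of the ubiquitin-like protein UFM1, was at 53.1 and 53.9 against 54.2 and 43.0 CPM in serum and 52.1 and 54.2 against 55.6 and 48.6 in EpiSC (Mll2 minus Setd1a 2.04 ± 0.19, adjusted p = 0.000842). Gemin6, a factor of spliceosomal RNP assembly, was at 33.6 and 38.1 against 29.9 and 30.7 CPM in serum and 15.9 and 19.0 against 9.51 and 13.5 in EpiSC (Mll2 minus Setd1a 2.83 ± 0.27, adjusted p = 0.000842). Unlike for Det1 and Ufl1, the Gemin6 groups did not overlap in either state, and all 4 knockout libraries were higher than their partners. Alg8, a glucosyltransferase of N-glycan assembly, was at 18.0 and 21.3 against 19.9 and 21.3 CPM in serum and 24.3 and 29.5 against 25.2 and 31.8 in EpiSC (Mll2 minus Bod1L 2.48 ± 0.24, adjusted p = 0.00297). Ccdc191 differed from both (3.15 and 2.99).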

How the data were processed

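RNA was poly(A)-selected and made into strand-specific, single-end libraries, per the labels' protocols. The authors deposited raw read counts per gene for all libraries in 1 table. Per the file headers the counts came from featureCounts 1.5.2 with the reverse strand setting 2, primary alignments of mapping quality 1 or more, mm10 and Ensembl release 87. The aligner GSNAP is named in the submitters' processing notes. The table holds 49671 genes and 92 spike-in lines, which were left out and hold 0 counts. There were 0 unused columns of per-sample values.

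Samples were grouped by title. Genes passing edgeR's filter (minimum count 10) were TMM-scaled and tested with edgeR 4.0.16's quasi-likelihood test in R 4.3.3, with Benjamini-Hochberg adjustment over all tested genes at 0.05. The planned design was medium plus genotype (5 residual degrees of freedom). The labels state no pairing. Same-numbered knockout and wild-type libraries shared their replicate difference (r = 0.818 and 0.746 over 12060 genes, log2 (CPM + 1)) and the presence of Y-linked Ddx3y, and the blocked fit (3 residual degrees of freedom) is therefore printed beside the planned one. DESeq2 1.42.0 was an alternative. Single states, their difference, and differences to 2i, Setd1a and Bod1L came from models holding those groups.

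The members and lists were chosen with earlier results of these data known. Named genes were Kmt2b, the 15 lowest and 10 highest called genes of at least 1 CPM with a symbol that is no clone name, the 5 lowest and 3 highest in each state, up to 5 per difference, and list members. The rule was applied to the blocked fit, and 5 lists (Hedgehog, class I, SREBP, meiosis, TGF-beta ligands) were added, after values were seen. Some further genes were named after their values were seen (B2m, Gdf3, Gpr161, Igf2, Inhbb, Myc, Pou5f1 and others). Some genes that the rule takes are not reported here. On simulated counts of 19591 genes for the effect over both states, the fit without pairs recovered 24% of 100 genes changed by log2 1 and 77% of 100 changed by log2 2, with 0 unchanged genes called. The blocked fit recovered 75% and 97%, with 11 unchanged genes called. The counts were drawn from the blocked model itself, with its gene means per pair and its spread. They therefore favour that fit and cannot show whether the pairing is right.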

Additional observations from a re-analysis of the deposited data

Results flagged for a closer look

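In 5 genes the knockout effect in EpiSC differed from that in serum ESC by the test of the difference itself with pairs as a block (log2, EpiSC minus serum): H19 by -2.80, Tenm3 by 2.12, Ptch1 by -2.63, Slco5a1 by 2.09 and Gli1 by -2.94. In 5 genes the effect over both states differed from that in 2i by the same kind of test: Lin28b by 3.37, H19 by -3.40, Gtpbp10 by 2.60, Krt19 by -3.40 and Svip by 3.35. For H19 the effect over both states averages a rise in serum and a fall in EpiSC. Lin28b groups were apart in serum, lower in the knockout, and overlapped in EpiSC. The fits without pairs called none of these differences in edgeR. Without pairs, 230 genes differed between the Mll2 and Setd1a effects and 24 between the Mll2 and Bod1L effects.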

How the results depend on the processing

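The pairing decided most counts of called genes. With pairs as a replicate block against without, they were 216 against 0 over both states, 182 against 0 in serum, 859 against 0 in EpiSC, 13 against 0 for the difference between states, 39 against 0 for that to 2i, 1954 against 230 for that to Setd1a, 847 against 24 for that to Bod1L, and 13 against 0 over the lists fixed with the design. In that order, removing the filter without pairs gave 55, 25, 80, 2, 193, 643, 41 and 2, and DESeq2 without pairs gave 245, 64, 135, 5, 61, 750, 274 and 8. A model of all 36 libraries without pairs gave 1 over both states, 3 against 2i and 76 against Bod1L, and with pairs 693 over both states and 30 in the lists. Leaving out 1 library at a time without pairs gave 0 for both states, each state and their difference, 91 to 215 against Setd1a (91 without Mll2 wild type EpiSC replicate 1), 3 to 34 against Bod1L (3 without that library), and 0 to 528 against 2i (528 without Mll2 wild type 2i replicate 1, which leaves only the library that goes against its label). With pairs, the 216 became 1544 with no filter, 1424 in DESeq2, 1236 with an effect per medium, 94 and 76 without serum pair 1 or 2, and 4 and 1 without EpiSC pair 1 or 2. Without the second 2i pair the 39 became 204. The causes were not tested, beyond fewer samples in the fits that leave libraries out. The 2i library said to go against its label does so in Kmt2b, and not in Hfm1 or Magohb. Of the 216, 213 were called by DESeq2 with pairs and 167 by the paired model of 36 libraries. The other size factors kept each count within 1.5 times. For the named genes, 380 comparisons with an alternative kept direction and side of the threshold, 402 kept the direction and lost the call, 38 gained one and 2 reversed. For genes named from the paired fits most of these alternatives, among them all fits without 1 library, were unpaired, so that block and library changed together. Against -2.97 for Otud6a in serum ESC with the block, unpaired fits without 1 library gave -6.34 to 0.17 (without Mll2 wild type serum replicate 1). Against -5.84 for Dppa3 in EpiSC with the block, they gave -6.90 to 0 (without Mll2 wild type EpiSC replicate 2). Against -2.80 for H19 EpiSC minus serum ESC, with the block, they gave -4.63 (without Mll2 knockout EpiSC replicate 1) to -1.15 (without wild type EpiSC replicate 1). Against -3.40 for H19 minus 2i, with the block, and -3.40 for Krt19 minus 2i, with the block, they gave -5.66 and -5.61 (without wild type 2i replicate 1) to -1.14 and -1.69 (without knockout 2i replicate 1). Against -4.30 for Hfm1 in EpiSC with the block, they gave -6.75 to -3.03, and against 1.37 for Fgfbp1 in serum ESC with the block 0.65 to 2.38, without replicate 1 of knockout and wild type EpiSC, and replicates 2 and 1 of wild type serum cells. Against -4.90 for Trim30d in serum ESC with the block they gave -8.07 (without knockout replicate 1, which leaves 0 reads, so that this value is no bound) to -3.88. The blocked fits and variants of them, other than the plain block, were chosen after seeing the data. A level under 0.0893 to 0.104 CPM (3 reads) was not told from 0 (counting error only).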
